A study of Mus musculus with 2 samples.

Results

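The genes described here are the ligands and receptors of the tumour necrosis factor (TNF) superfamily, read from RNA-seq of mouse back skin with and without mechanical stretch. They were taken by name: every symbol that starts with Tnfsf or Tnfrsf and a digit, plus Tnf, Lta, Ltb, Ltbr, Cd40, Cd40lg, Cd27, Cd70, Fas, Fasl, Eda, Edar, Eda2r and Relt. Of 45 such names among the 24421 genes of the table, 40 exceeded 3 counts in either library and are described below, 14 ligands and 26 receptors. The mice were wild type C57BL6/J females of 8 weeks whose back hair was kept in telogen. Stretched skin had been strained for 5 days by a device glued to the back, from an initial 33% that was stepped up daily, and control skin was whole-layer skin without strain at the same day. Skin under the glue was discarded. Each condition had 1 library, how many animals it holds is not given in the sources used here, and without replicates no p-value is given. The libraries held 14152379 counts (control) and 11648655 counts (stretched).

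TNF superfamily ligands are mostly membrane-anchored proteins that act as trimers, and some are cut from the cell surface to act at a distance. Their receptors fall into those with a death domain, which can recruit caspase-8, those that bind TRAF adaptors and feed the NF-kappaB pathways, and decoys that bind ligand without passing on its signal. In skin the family serves inflammation and lymphocyte costimulation on the one hand, and the formation and cycling of hair follicles, through the ectodysplasin branch, on the other.

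Each difference is given as the log2 ratio of CPM (counts scaled by the total of the library to a common size) in stretched over control skin, with its exact 95% Clopper-Pearson interval. The interval covers counting error only and compares these libraries, not the conditions. For calls and medians, counts under 3 were raised to a floor of 3. Of the 40 genes, 6 had 3 or fewer counts in a library. The floor changes the ratio of Cd27, Lta and Tnfsf14 among them, and where such a gene had 1 to 3 counts its ratio below is that of the deposited counts. Scaling by total counts placed the median gene of the table at -0.12, and other scalings would add between 0.06 and 0.11 to every log2 ratio. In whole skin, fewer cells of a type and less RNA per cell cannot be told apart.

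The libraries differed in cell type markers before any member is considered. The 6 interfollicular keratinocyte markers (summed level 14633 CPM in control and 15595 CPM in stretched skin) and the 6 fibroblast markers (40931 and 77054 CPM) were detected in both, as skin should have. The 12 macrophage markers summed to 947 CPM in control and 2243 CPM in stretched skin, with intervals wholly above 0 for 11 of them. The 8 markers of the growing (anagen) hair matrix summed to 7328 CPM in control skin and 1411 CPM in stretched skin, all lower in stretched skin. Control skin labelled as resting therefore contained abundant hair matrix RNA, with 60382 counts of Krt71, an inner root sheath keratin. The parts of these cell types in the results below were not tested.

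TNF superfamily genes lay toward higher values in stretched skin. The CPM ratio was at least 2-fold higher for 12 of the 40 genes, against 6.32% of all 16255 genes above the same count, and at least 2-fold lower for 3 genes, against 5.47%. The counting interval lay wholly above 0 for 16 genes, against 18.1% of all genes, and wholly below 0 for 3 genes, against 33.5%. The median log2 ratio was 0.51 over the 40 genes, 1.01 over the 14 ligands and 0.33 over the 26 receptors, beside -0.12 over all genes. With 1 CPM added to both values, 3 genes were at least 2-fold higher and 0 lower, beside 3.3% and 3.05% of all genes, and the median of the ligands was 0.48. A gene with few counts passed the count minimum through whichever library was higher, so the 21 genes that reached 100 counts in sum were also summarized. Their median was 0.32, with 11 intervals wholly above 0 and 2 wholly below, beside 2552 (20%) and 5123 (40.2%) of the 12740 genes of the table with at least 100 counts. Of the genes past 2-fold, 3 reached 100 counts (Tnfrsf1b, Tnfrsf23 and Tnfsf10), all higher in stretched skin, beside 3.67% higher and 3.84% lower of those 12740 genes.

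**Figure D1:**
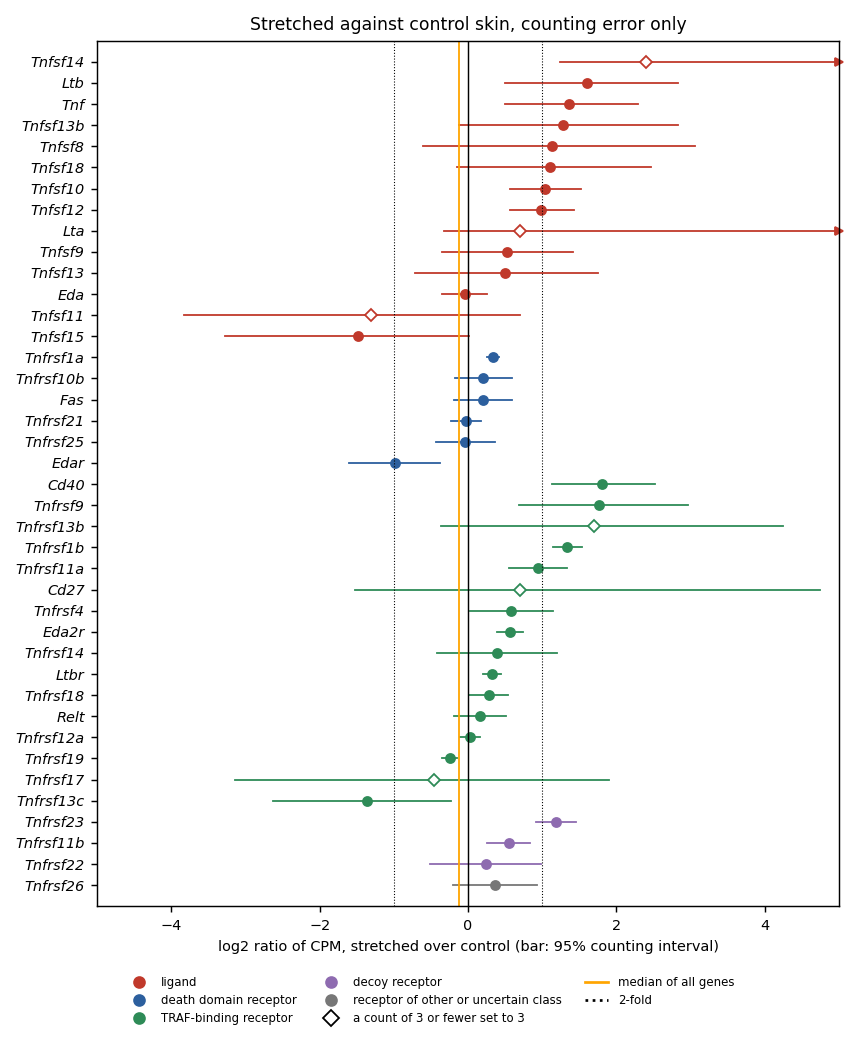
The log2 ratio of CPM (stretched over control skin, horizontal axis) is plotted for the 40 genes, coloured by role, with bars for the 95% counting interval and open diamonds for genes with a count set to 3. Points to the right of the 2-fold line at 1 include Cd40, Tnfrsf9, Tnfrsf1b and Tnfrsf23 among receptors, while Edar, Tnfrsf19 and Tnfrsf13c have intervals wholly below 0.

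**Figure D2:**
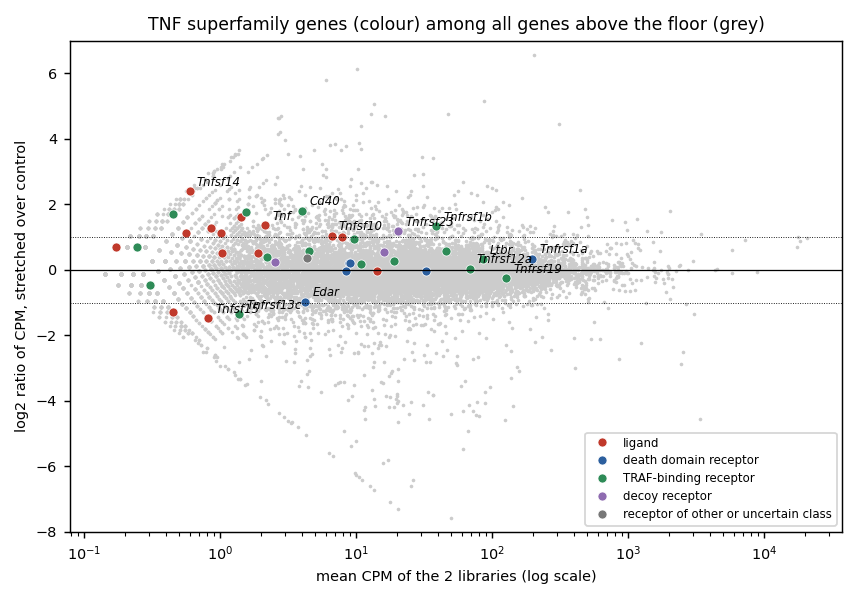
The log2 ratio of CPM (vertical axis) is plotted against the mean CPM of the libraries (horizontal axis, log scale) for all 16255 genes above the floor in grey and the 40 TNF superfamily genes in colour by role. The ligands sit at the low end of expression, where the grey cloud is also widest, and Tnfrsf1b and Tnfrsf23 lie in its upper part at higher levels.

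Receptors were far more abundant than ligands per length of transcript. FPKM was computed from the counts, the library totals and the exon length of each gene. Tnfrsf1a, the TNF receptor found on most cell types, had the highest level in both libraries, 66.9 FPKM in control and 84.6 FPKM in stretched skin. It held 29.7% of the receptors' summed FPKM in control and 31.1% in stretched skin. Tnfrsf12a (35.0 and 35.7 FPKM), Ltbr (32.2 and 40.2 FPKM) and Tnfrsf19 (29.1 and 24.5 FPKM) followed, and with Tnfrsf1a they made up 72.5% of the receptors' FPKM in control and 68.0% in stretched skin. Ltbr and Tnfrsf12a exchanged places between the libraries. The fifth place was held by Tnfrsf18 in control skin (11.1 FPKM) and by Tnfrsf1b in stretched skin (14.5 FPKM).

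No ligand exceeded 6.86 FPKM in either library. Tnfsf12, which encodes TWEAK, led both orders (3.45 and 6.86 FPKM), followed by Eda (2.12 and 2.06 FPKM). Tnf moved from the fifth place in control skin (0.73 FPKM) to the third in stretched skin (1.89 FPKM), with Tnfsf9 and Tnfsf10 close to it at 1.73 and 1.68 FPKM. Of the 24 ligand and receptor pairs with both genes above the floor, the receptor had the higher FPKM in both libraries in 19.

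**Figure D3:**
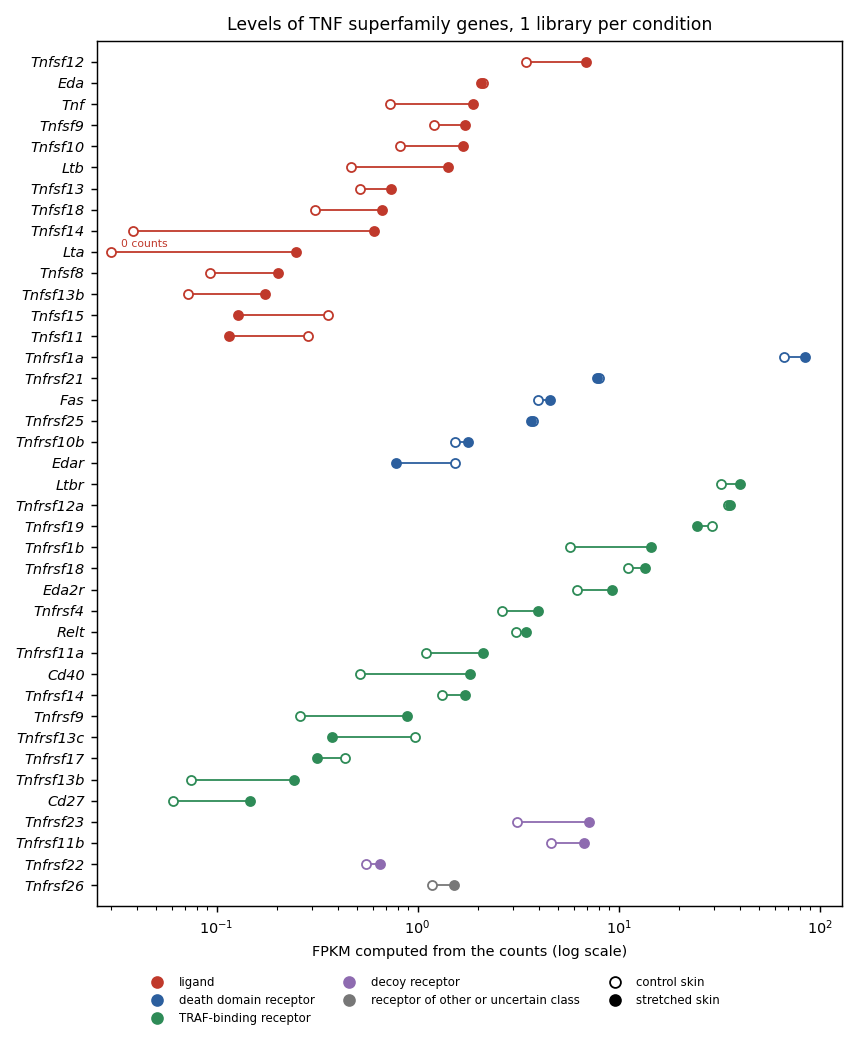
FPKM (horizontal axis, log scale) of the 40 genes is plotted in control skin (open) and stretched skin (filled), grouped and coloured by role. Lta, with 0 counts in control skin, is drawn at the left edge. Most receptors lie to the right of most ligands, and the longest lines among abundant genes belong to Tnfrsf1b and Tnfrsf23.

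Of the 3 genes past 2-fold with at least 100 counts, Tnfrsf1b had the highest ratio. It encodes the second TNF receptor, which has no death domain and is mostly found on leukocytes and endothelial cells. It lies on chromosome 4 of mm10 from 145213463 to 145246870 on the minus strand. Control skin gave 309 counts and stretched skin 644, which are 21.8 and 55.3 CPM. The ratio was 2.53-fold (log2 1.34, interval 1.14 to 1.54), higher than in 96.5% of all genes. Tnf itself (chromosome 17, 35199381 to 35202007) had 17 and 36 counts, a log2 ratio of 1.36 (interval 0.49 to 2.29). The FPKM of Tnfrsf1b was 7.80 times that of Tnf in control skin and 7.68 times in stretched skin. Tnfrsf1a, the receptor with a death domain, differed less, with 2454 and 2552 counts (0.34, interval 0.26 to 0.42), so its FPKM went from 91.3 to 44.8 times that of Tnf. Macrophages are a known source of TNF in inflamed skin. Their markers had a median log2 ratio of 1.34, and their part in these values was not tested.

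The lymphotoxin branch organizes lymphoid tissue through the lymphotoxin beta receptor, and its ligands had few counts. Lta and Tnfsf14 passed the count minimum through the stretched library alone. Ltb had 10 counts in the control and 25 in the stretched library (1.60, interval 0.49 to 2.83). Lta had 0 and 4 counts, too few to detect a difference (interval from -0.32 upward). Tnfsf14, which encodes LIGHT, a ligand of both Ltbr and Tnfrsf14, had 1 and 13 counts. Its log2 ratio was 3.98 with a wide interval of 1.25 to 9.39. Of the receptors, Ltbr had 1072 and 1101 counts (0.32, interval 0.20 to 0.44) and Tnfrsf14 had 27 and 29 counts (0.38, interval -0.42 to 1.20). Tnf, Lta and Ltb lie within 10.9 kb of each other on chromosome 17, from 35194439 to 35205351, and all 3 had more counts in stretched skin.

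Cd40 had the highest ratio of the receptors whose counts exceeded 3 in both libraries. CD40 is the receptor through which T cells activate dendritic cells, macrophages and B cells. Control skin gave 25 counts and stretched skin 72, 1.77 and 6.18 CPM, a 3.50-fold ratio (log2 1.81, interval 1.13 to 2.53). Its gene lies on chromosome 2 from 165055627 to 165072948. The ligand Cd40lg had 0 and 1 counts, at the floor of 3 counts, which corresponds to 0.212 CPM in control and 0.258 CPM in stretched skin. Tnfrsf9, the costimulatory receptor CD137, had 10 and 28 counts (1.77, interval 0.68 to 2.97), and its ligand Tnfsf9 had 22 and 26 counts (0.52, interval -0.35 to 1.41). The FPKM of Tnfrsf9 stayed under that of its ligand, at 0.22 and 0.51 times. Tnfrsf4, the receptor OX40, had 51 and 63 counts (0.59, interval 0.03 to 1.15) and its ligand Tnfsf4 had 0 and 2.

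Tnfrsf18, the receptor GITR of regulatory and activated T cells, had 240 counts in each library, a log2 ratio of 0.28 (interval 0.02 to 0.55) after scaling. It shares 14.8% of its 76-base stretches with the antisense gene Gm16008, so its value is uncertain. Its ligand Tnfsf18 had 9 and 16 counts (1.11, interval -0.15 to 2.47). Cd27 had 2 and 4 counts (1.28, interval -1.52 to 4.75) and its ligand Cd70 had 2 and 0, and Tnfsf8 had 5 and 9 counts while its receptor Tnfrsf8 had none in either library. Costimulatory receptors are best known from lymphocytes. The 7 T cell markers in the table summed to 12.2 CPM in control and 18.9 CPM in stretched skin. The 6 of them above the floor had a median log2 ratio of 0.41. Of the 7, Cd4 had 15 and 56 counts (2.18, interval 1.34 to 3.11), Cd3e had 27 and 24 (0.11, interval -0.75 to 0.96) and Cd8a was at the floor. The 6 natural killer cell markers summed to 4.73 and 8.58 CPM, with Ncr1 at 0 and 5 counts, Gzma at 1 and 8 and Prf1 at 14 and 11. The 8 dendritic cell markers summed to 27.4 and 48.7 CPM and had a median of 0.67. Itgax had 47 and 152 counts, Flt3 had 16 and 33, Ccr7, which marks migrating dendritic cells, had 3 and 29, and Xcr1 had 28 and 17. The others differed less, with Cd207 at 135 and 153, Cd209a at 107 and 126, Zbtb46 at 41 and 41 and Clec9a at 11 and 16.

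In the TRAIL branch the ligand and a decoy were higher and the signalling receptor was not detectably so. Tnfsf10, which encodes the death ligand TRAIL, had 61 and 103 counts (1.04, interval 0.57 to 1.52). Its signalling receptor Tnfrsf10b had 119 and 113 counts, and a difference was not detectable (0.21, interval -0.18 to 0.59). Tnfrsf23, a mouse receptor that binds TRAIL and lacks a death domain, had 176 and 329 counts, a 2.27-fold ratio (log2 1.18, interval 0.91 to 1.46). It lies on chromosome 7 from 143665809 to 143685872, beside Tnfrsf22 and Tnfrsf26 in a group that spans 78.2 kb. The neighbouring decoy Tnfrsf22 had 33 and 32 counts (0.24, interval -0.51 to 0.98) and Tnfrsf26 had 54 and 57 (0.36, interval -0.20 to 0.92). Tnfrsf23 shares 13.5% and Tnfrsf22 20.6% of their 76-base stretches with other genes, mainly with each other. How shared reads were counted is not given in the sources used here, and both values are uncertain. Fas, another death receptor, had 116 and 110 counts (0.20, interval -0.19 to 0.59), and its ligand Fasl had 0 and 2.

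The receptor activator of NF-kappaB, RANK, and its decoy were both higher. Tnfrsf11a, which encodes RANK, had 93 and 147 counts (0.94, interval 0.56 to 1.33) and Tnfrsf11b, which encodes the soluble decoy osteoprotegerin, had 183 and 220 (0.55, interval 0.26 to 0.84). The ligand of both, Tnfsf11 (RANKL), had 9 and 3 counts, with an interval that includes 0 (-1.30, interval -3.83 to 0.70). RANK marks osteoclast precursors and other myeloid cells and also acts in hair growth.

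Tnfsf12, the ligand TWEAK, had 74 and 121 counts (0.99, interval 0.56 to 1.43). Its receptor Tnfrsf12a, known as Fn14 and induced in injured tissue, had 957 and 803 counts, a log2 ratio of 0.03 (interval -0.11 to 0.16). The FPKM of the receptor was 10.1 times that of the ligand in control skin and 5.20 times in stretched skin. Tnfsf12 shares 45.8% of its stretches with the read-through gene Tnfsfm13, which had 7 and 11 counts, and the neighbouring Tnfsf13 shares 55.7%. Tnfsf13, which encodes APRIL, had 12 and 14 counts (0.50, interval -0.72 to 1.75), and the values of both ligands are uncertain.

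The genes of B cell survival had few counts. Tnfrsf13b and Tnfrsf17 each passed the count minimum through 1 library, which fixed their direction. Tnfsf13b, the ligand BAFF, had 7 and 14 counts (1.28, interval -0.12 to 2.83). Among its receptors Tnfrsf13c had 28 and 9 counts (-1.36, interval -2.62 to -0.23), Tnfrsf13b had 3 and 8 (1.70, interval -0.36 to 4.24) and Tnfrsf17 had 5 and 3 (-0.46, interval -3.14 to 1.91). Tnfrsf13c, the BAFF receptor, was the only gene of the family past 2-fold lower whose interval excluded 0. Among B cell markers, Ms4a1 was at 0 counts in both libraries, Cd79a was at 1 and 0, Cd79b at 8 and 9, Pax5 at 0 and 2 and Jchain at 1 and 0. Sdc1, a plasma cell marker, made up 99.8% of the summed level of the list in control skin and is also a keratinocyte gene.

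In the ectodysplasin branch, Edar was lower, Eda2r higher and Eda near 0. Edar, the ectodysplasin receptor needed to form hair follicles, lies on chromosome 10 from 58600789 to 58675654. Control skin gave 79 counts and stretched skin 33 (-0.98, interval -1.61 to -0.38). Its adaptor Edaradd, named after its value was seen, had 405 and 187 counts (-0.83, interval -1.09 to -0.58). The ligand Eda had 205 and 164 counts, a log2 ratio of -0.04 (interval -0.35 to 0.26) whose sign changes with each other scaling. Eda2r, the X-linked receptor of the second Eda isoform, had 521 and 635 counts (0.57, interval 0.40 to 0.74), so the receptors of the ligand lay on opposite sides of 0. Tnfrsf19, the receptor TROY of the follicle epithelium, had 1950 and 1351 counts (-0.25, interval -0.35 to -0.15). Its value was -0.15 under TMM scaling, and 35.4% of all genes had a lower ratio. The anagen hair matrix markers had a median log2 ratio of -2.17, and what part the hair matrix had in the values of Edar, Edaradd and Tnfrsf19 was not tested.

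The remaining receptors differed by less than their counting error. Tnfrsf21, a death receptor also called DR6, had 464 and 375 counts (-0.03, interval -0.23 to 0.17). Tnfrsf25, the death receptor for TL1A, had 121 and 97 (-0.04, interval -0.44 to 0.36), and Relt had 144 and 133 (0.17, interval -0.18 to 0.52). The signs of Tnfrsf21 and Tnfrsf25 also change with each other scaling. The TL1A ligand gene Tnfsf15 had 17 and 5 counts (-1.48, interval -3.28 to 0.01), which includes 0 by a narrow margin. With Edar, Fas, Tnfrsf1a and Tnfrsf10b, the 6 death domain receptors had a median of 0.09 and none was past 2-fold. The 16 measured receptors that bind TRAFs had a median of 0.48, with 4 past 2-fold higher (25.0%, beside 6.32% of all genes) and 1 past 2-fold lower (6.25%, beside 5.47%). Of the 4, Tnfrsf13b passed the count minimum through stretched skin alone and its interval includes 0.

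Pairs were counted by the sign of each ratio, whatever its interval. Of all 16255 single genes, 6262 were higher and 9993 lower in stretched skin. Of the 24 pairs, which reuse the same ligands and receptors, 16 had both genes higher in stretched skin, 3 had a higher ligand with a lower receptor, 3 a lower ligand with a higher receptor and 2 had both lower. Under each of the 4 other scalings, Eda and Tnfrsf25 change sign and these counts become 17, 4, 3 and 0. Of the 16 pairs, 6 hold Lta, Tnfsf14 or Tnfrsf13b, which passed the count minimum through stretched skin alone, so their direction was fixed by that minimum. The same holds, through control skin, for Tnfsf11 and Tnfrsf17 in 4 of the 6 pairs with opposite signs. Both intervals lay wholly above 0 in 6 pairs, 1 of them with Tnfsf14, and 18.1% of all single genes had such an interval. In the pair of Tnf and Tnfrsf1b the log2 ratios were 1.36 and 1.34, and in that of Tnfsf12 and Tnfrsf12a they were 0.99 and 0.03.

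**Figure D4:**
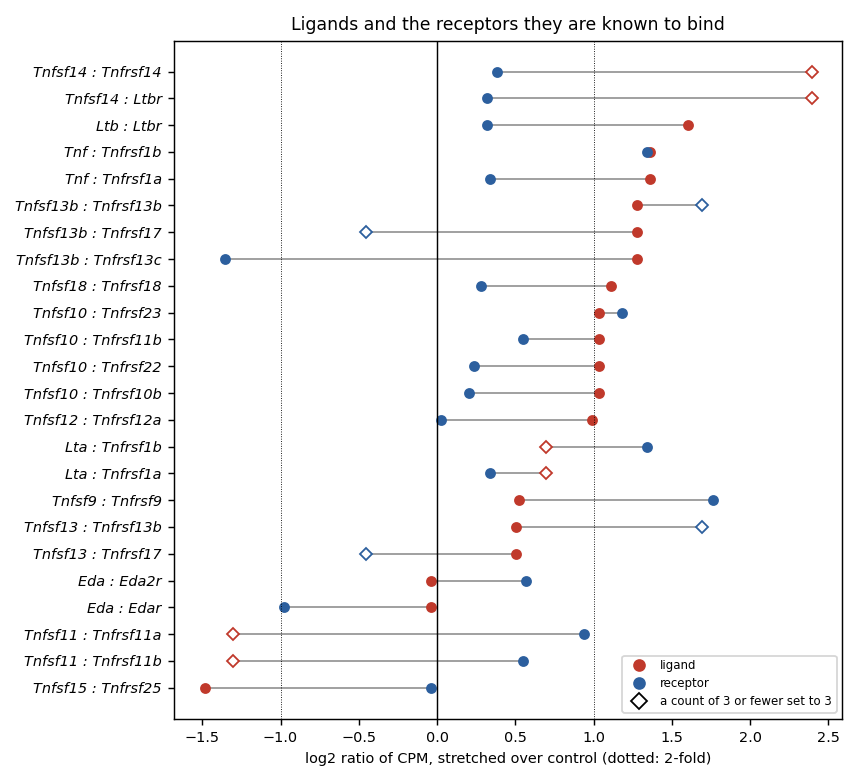
The log2 ratio of CPM (stretched over control skin, horizontal axis) is plotted for the ligand (red) and the receptor (blue) of 24 pairs, with diamonds where a count was set to 3. The points of Tnf and Tnfrsf1b overlap at 1.36 and 1.34, while Eda and Edar are at -0.04 and -0.98.

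The FPKM filter of the study's methods leaves most of the family untested. As applied here the rule adds 1 to each FPKM, which the study's methods do not state. It keeps genes whose product of both FPKM exceeds 10, and calls a fold of at least 2 or at most 0.5. It kept 15 of the 40 genes, 1 of them a ligand. Among these, 1 was upregulated, Tnfrsf1b, against 2.61% of the 10913 genes kept in all, and 0 were downregulated, against 2.45%. Tnfrsf23 lay just under the fold threshold by this measure, though its CPM ratio was 2.27-fold. The filter removed Cd40 and Tnf, and without it, but with the 1 still added, Tnfrsf1b was the only gene of the family called. By CPM ratio Cd40 was 3.50-fold and Tnf 2.57-fold higher, so the added 1 kept both under the threshold.

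Genes that carry TNF receptor signals went both ways. Of the 16 adaptors and death complex genes, 6 had intervals wholly above 0 (37.5%, beside 18.1% of all genes) and 4 wholly below (25.0%, beside 33.5%), around a median of 0.03. Mlkl, the executor of necroptosis, was the only gene of the list past 2-fold (6.25%, beside 6.32% of all genes), with 56 and 106 counts (1.20, interval 0.72 to 1.70). Of the most abundant, Traf3 was at 0.25 (interval 0.10 to 0.40), Traf6 at -0.35 (interval -0.52 to -0.18), Cflar at 0.05 (interval -0.10 to 0.19) and Tnfaip8 at -0.16 (interval -0.29 to -0.02). The 12 NF-kappaB subunits and kinases had a median of -0.01, with 4 intervals wholly above 0 and 4 wholly below (33.3% each). The abundant Nfkb1 was at 0.03 and Rela at 0.43, while Map3k7 was at -0.14 and Tab2 at -0.21. The other 3 genes with intervals above 0, named after their values were seen, were Nfkb2 (0.63), Relb (0.67) and Map3k14 (0.69). The kinase gene Chuk, at -0.21 (interval -0.38 to -0.03), and the subunit gene Rel, with 77 and 42 counts (-0.59, interval -1.17 to -0.03), were also named after their values were seen.

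Genes listed as inhibitors, feedback regulators or targets of NF-kappaB also went both ways. Of 13, the interval lay wholly above 0 for 9 (69.2%, beside 18.1% of all genes) and wholly below for 2 (15.4%, beside 33.5%), with a median of 0.35, and 3 were past 2-fold higher (23.1%, beside 6.32%). Nfkbie, an inhibitor of NF-kappaB, had 57 and 146 counts (1.64, interval 1.19 to 2.11), Vcam1, an endothelial adhesion gene, had 92 and 168 (1.15, interval 0.77 to 1.53) and Tnip3 had 9 and 35 (2.24, interval 1.15 to 3.48). Of the abundant genes, Tnfaip3, which encodes the feedback enzyme A20, was at 0.81 and Nfkbia at 0.35, but Sod2 was at -0.39 and Nfkbiz at -0.25. The 5 genes of ligand shedding and release had a median near 0, with 1 interval wholly above 0, 2 wholly below and none past 2-fold. Adam17, the enzyme that releases TNF, had 1395 and 1145 counts (interval -0.12 to 0.11), Adam10 at -0.19, Rhbdf1 at 0.11 and Furin at 0.18. Rhbdf2, a partner of ADAM17 that was named after its value was seen, had 1328 and 807 counts (-0.44, interval -0.57 to -0.31).

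To look for letters of the NF-kappaB binding motif near these genes, the 300-base RefSeq promoter windows (250 bases before and 50 after each start, GRCm38.p6) were searched on both strands for the kappaB motif of 10 bases. Of the 40 genes, 33 had a window, and the motif occurred in 3 of their 37 windows (8.11%), beside 8.46% of all 32851 windows. These were a window each of Ltb, Tnfrsf9 and Tnfrsf25. Below are the 120 bases before the start, with the motif in capitals, for these genes and for Tnfrsf1b, whose window has none. A match is a description of letters and not a site. In Tnfrsf9 the capitals join matches that overlap.
Ltb, chr17:35194387-35194506, plus strand: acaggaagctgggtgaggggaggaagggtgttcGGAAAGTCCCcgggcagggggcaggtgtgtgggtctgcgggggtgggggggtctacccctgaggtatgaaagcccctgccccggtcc
Tnfrsf9, chr4:150927879-150927998, plus strand: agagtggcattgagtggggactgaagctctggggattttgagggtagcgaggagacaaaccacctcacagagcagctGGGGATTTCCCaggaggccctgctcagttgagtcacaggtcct
Tnfrsf25, chr4:152116223-152116342, plus strand: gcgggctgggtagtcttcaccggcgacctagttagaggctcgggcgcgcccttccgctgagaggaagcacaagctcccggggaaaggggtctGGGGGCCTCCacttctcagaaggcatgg
Tnfrsf1b, chr4:145246871-145246990, minus strand: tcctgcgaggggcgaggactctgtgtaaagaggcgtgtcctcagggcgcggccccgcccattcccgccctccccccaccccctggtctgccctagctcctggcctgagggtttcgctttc
The motif starts 87 bases before the start of Ltb, 43 before that of Tnfrsf9 and 28 before that of Tnfrsf25. The Tnfrsf25 window holds another match 36 bases after the start, outside the printed stretch. Ltb and Tnfrsf9 had log2 ratios of 1.60 and 1.77, Tnfrsf25 was at -0.04, and Tnfrsf1b, with none in this window, was at 1.34.

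Other cell types of whole skin are given for comparison. The 4 neutrophil markers above the floor had a median log2 ratio of 2.21. Together with Mpo, at 0 and 3 counts, and Ngp, at 0 counts in both libraries, they summed to 14.2 and 67.4 CPM. The 7 mast cell markers had a median of 0.51, the 6 fibroblast markers 0.56, the 6 endothelial markers 0.40 and the 6 interfollicular keratinocyte markers 0.08. The fibroblast median lay between the collagen genes of that list and the lower values of Pdgfra, Dcn and Lum. The 5 adipocyte markers were lower, with a median of -0.77, and the 6 skeletal muscle markers had a median of -0.38 over a wide range from -4.57 for Myh4 to 1.10 for Myh1.

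**Figure D5:**
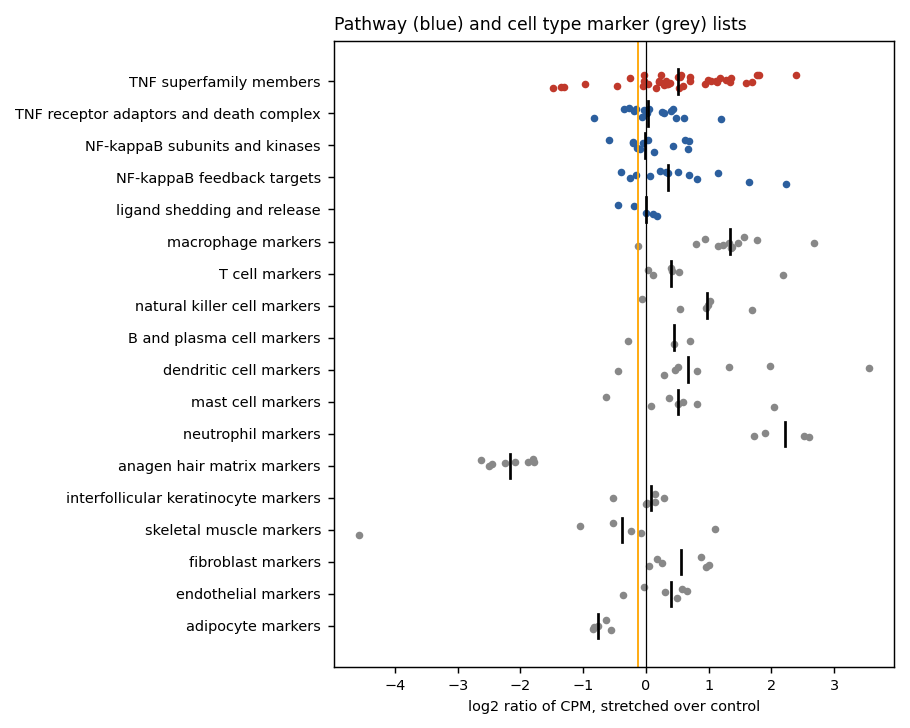
Each point is the log2 ratio of CPM of a gene (stretched over control skin, horizontal axis), for the 40 TNF superfamily genes (red), the pathway lists (blue) and the cell type marker lists (grey), with a black bar at each median and an orange line at the median of all genes. The family median of 0.51 lies between the hair matrix median of -2.17 and the neutrophil median of 2.21, and the lists of adaptors and NF-kappaB subunits centre near 0.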

How the data were processed

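RNA-seq was done on whole-layer back skin, with 1 library of stretched and 1 of control skin. Reads had been quality filtered (FASTX-Toolkit) and TopHat2 had placed them on mm10, per the methods and the submitters' notes. The authors deposited raw counts of reads per gene symbol, not normalized, and the counting program and its handling of strand and shared reads are not given in the sources used here. CPM used total counts. FPKM used the union of exons in GENCODE M21 (GRCm38, the same assembly as mm10), which gave a length for 98.6% of genes and all 45 names. Counts under 3 were raised to 3, which is 0.212 CPM in control and 0.258 CPM in stretched skin. Intervals are exact Clopper-Pearson bounds of the share of counts in the stretched library, and PCR reads are not independent molecules, so they cover counting error only. With 1 library per condition no test was run, and calls were checked on simulated data.

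Genes named are all members above 3 counts in at least 1 library, and from the pathway lists the genes past 2-fold and up to 4 with the most counts. In the report, list genes outside this rule were named after their values were seen. Some values are not reported here. The members and lists were chosen with earlier results of these data known. Shared stretches are 76-base runs of a gene's transcripts found in another gene on either strand. Alternatives were scaling by DESeq2 1.42.0 size factors (median of ratios), by TMM or upper quartile in edgeR 4.0.16, and by totals without the top 50 genes, 1 CPM added, at least 20 counts, a 1.5-fold threshold, an FPKM pseudocount of 0.1, no FPKM filter, and leaving out members that share 10% or more of their stretches. Python 3.11.15, numpy 2.4.6, pandas 2.3.3, scipy 1.17.1, matplotlib 3.10.9 and R 4.3.3 were used.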

Additional observations from a re-analysis of the deposited data

How the results depend on the processing

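Every log2 ratio shifted by 0.10 under TMM or upper quartile scaling, by 0.11 under DESeq2 size factors and by 0.06 when totals left out the top 50 genes. The median of the receptors was 0.43 under TMM, 0.43 under upper quartile and 0.44 under DESeq2 size factors. Under all 4 the 12 members at least 2-fold higher stayed so and were joined by Tnfrsf11a and Tnfsf12, and the 3 at least 2-fold lower were the same genes, while 6.84% to 7.31% of all genes were 2-fold higher and 4.59% to 4.96% lower. Adding 1 CPM to both values, which shrinks ratios of low counts, left 3 members past 2-fold higher (Cd40, Tnfrsf1b and Tnfrsf23) and 0 lower, and the median of the ligands was 0.48. Requiring 20 counts over both libraries left 9 higher and 2 lower (4.98% and 5.02% of all such genes). Leaving out members with shared stretches gave 11 higher and 3 lower of 35, beside 6.32% and 5.47% of all genes with or without shared stretches. A 1.5-fold threshold gave 17 and 4 (12.3% and 14.1% of all genes). Without the FPKM filter, but with 1 added to each FPKM, the study's rule called 1 member upregulated and 0 downregulated. With an FPKM pseudocount of 0.1, 2 members were upregulated by the study's rule, Tnfrsf1b and Tnfrsf23. Shares of all genes under these changes to the rule are not given here, so these counts have no background beside them. Of the 40 members, 3 changed sign with scaling (Eda, Tnfrsf21 and Tnfrsf25), all with intervals that include 0. No paired analysis was possible because each condition holds a single library, and for that reason none was left out. Depth limits 11 of the 40 members most, those with fewer than 30 counts over both libraries.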
